A study of Mus musculus with 7 samples.

Results

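The cell cycle and DNA replication genes described here are 45 mouse genes, chosen by symbol and looked up by Ensembl identifier among the 55414 identifiers of a bulk RNA-seq count table. All 45 were found, and all 45 passed the filter on low counts. They were divided by role into G1 cyclins and cyclin-dependent kinases (9 genes), E2F transcription factors (3), inhibitors of these kinases (3), replication licensing (8), DNA synthesis (4), G2 and entry into mitosis (7) and mitosis (11). The libraries were made from Paneth cells (PCs), purified with a cell sorter from the small intestine of C57BL/6J mice 15 h after an injection of PBS (3 libraries) or of tumour necrosis factor (TNF, 4 libraries). Each library came from a different mouse per the series description. The sources used here give no dose, age or sex of the mice, sorting marker or date of any step, and no batch is named in them. Total counts ran from 15511455 to 19193721 per library.

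PCs are secretory cells that sit deepest in the crypts of the small intestine. Mature PCs are regarded as cells that have left the cell cycle, while the stem and progenitor cells beside and above them divide often. In a dividing cell, D-type cyclins with Cdk4 or Cdk6, and then E-type cyclins with Cdk2, release E2F factors from retinoblastoma proteins in G1. E2F factors raise the transcription of genes for DNA replication, and in G2 the MuvB complex with B-Myb and FoxM1 activates a later set of genes for mitosis. In resting cells and early G1, the DREAM complex, which also holds MuvB, represses both sets. The kinase inhibitors p27, p57 and p18 hold cells in G1.

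After TNF all 11 mitosis genes of the set were lower. Of its 4 DNA synthesis genes, Pcna and Rrm2 were higher, and Rrm1 and Tyms (log2 fold change -0.38) were not called. These are no more calls than the 59.6% over all genes tested would give. Of 46 further mitosis genes outside the set, 34 were lower and 2 higher, and of 42 further replication genes 13 were lower and 8 higher. Of the 45 genes, 33 were differentially expressed genes (DEGs) with the quasi-likelihood test of edgeR at a Benjamini-Hochberg adjusted p under 0.05 over all genes. Of these, 27 were lower and 6 higher after TNF, and 12 were not called. Among all 14329 genes tested, 59.6% were DEGs, with 30.1% lower and 29.5% higher. The median log2 fold change was -0.61 over the 45 genes and 0.0017 over all genes tested. With a change of at least 2-fold required as well, 17 of the 45 genes were called, 16 lower and 1 higher, against 31.6%, 17.2% and 14.4% of all genes tested. Every role group but DNA synthesis held genes called lower. In bulk libraries, fewer dividing cells and less RNA of a gene per cell cannot be told apart.

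For 33 genes the ranges of the PBS and TNF libraries were separate, 27 of them lower and 6 higher. Over all genes tested, the TNF libraries lay all below the PBS libraries for 30.9% of genes and all above them for 29.9%. All 27 genes called lower and 5 of those called higher were among the genes without overlap. Mcm3 was called and overlapped, and Gmnn did not overlap and was not called. Counts of a gene in a library ran from 18 to 4514, and 5 genes (Ccne1, Cdkn1c, Cdkn2c, Cdc25c and Birc5) had a library with under 50 counts. Values are given as CPM, counts scaled to a library of 1e+06 counts, on library sizes scaled with TMM, the trimmed mean of M-values, in the order of replicates 1 to 3 (PBS) and 1 to 4 (TNF). A fold change is the fitted log2 ratio of TNF over PBS with its standard error (SE).

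**Figure D1:**
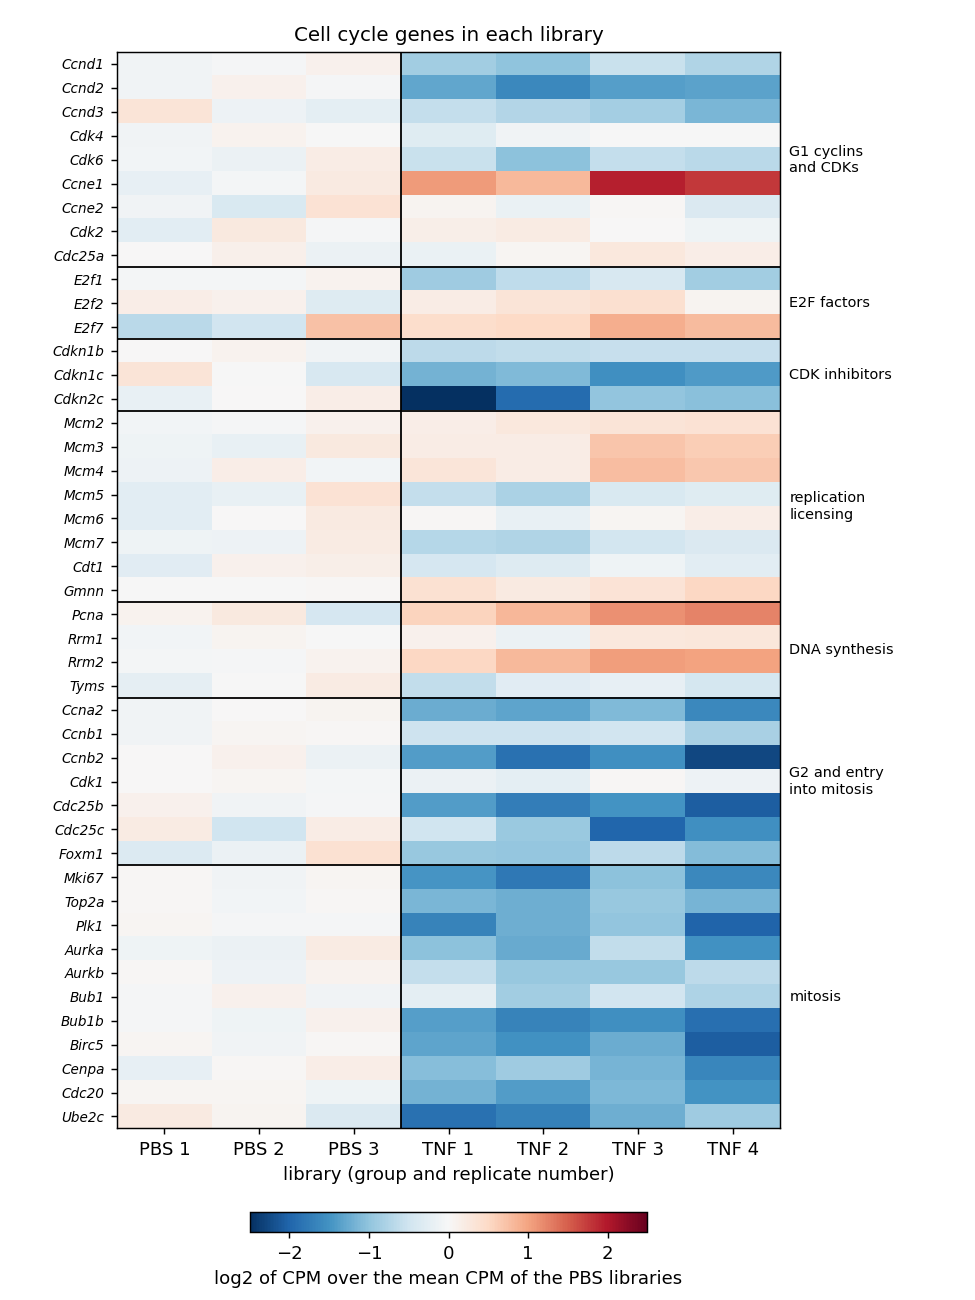
Level of each of the 45 genes (rows, by role) in each of the 7 libraries (columns), as log2 of the CPM over the mean CPM of the 3 PBS libraries, with red above and blue below that mean. The 4 TNF columns are blue for all 11 mitosis genes, red for Pcna and Rrm2, and of mixed colour in replication licensing.

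**Figure D2:**
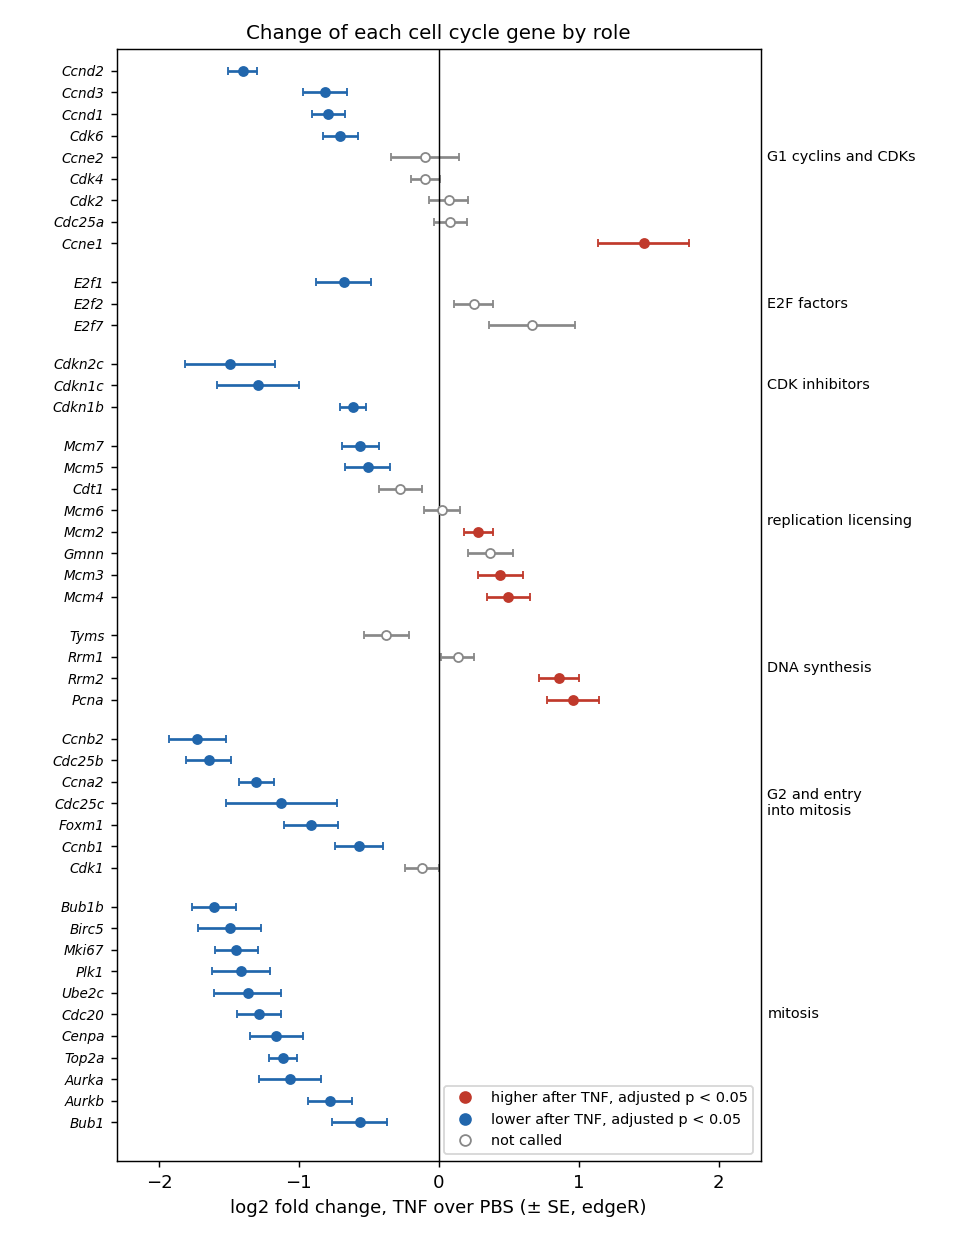
Fitted log2 fold change (TNF over PBS, horizontal axis) with its SE for each of the 45 genes, ordered within role groups, where filled points passed the test (red higher, blue lower) and open grey points did not. The 11 mitosis genes lie from -1.61 to -0.57, and the 4 DNA synthesis genes from -0.38 to 0.96.

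All 11 mitosis genes were lower after TNF, against 30.1% of all genes tested, with log2 fold changes from -1.61 to -0.57 and a median of -1.29. Mki67 (ENSMUSG00000031004, chromosome 7, 135291513 to 135318299 in GRCm39), which encodes the proliferation marker Ki-67 that coats mitotic chromosomes, had 188, 172 and 190 CPM after PBS and 65.8, 53.0, 90.5 and 59.6 CPM after TNF. All PBS libraries were well above all TNF libraries, and within the TNF group replicate 3 was highest. Mki67 fell by 1.45 ± 0.15 log2 units (adjusted p = 3.42e-06). Top2a (ENSMUSG00000020914, chromosome 11, 98883769 to 98915062 in GRCm39), the topoisomerase that untangles sister chromatids, had 196, 182 and 197 CPM after PBS and 86.9, 82.6, 98.7 and 85.5 CPM after TNF. Its groups did not overlap and the libraries within each group lay close together. Top2a fell by 1.12 ± 0.10 log2 units (adjusted p = 4.48e-07).

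The largest fall in mitosis was that of Bub1b, the spindle checkpoint kinase BubR1, with 23.6, 22.3 and 26.0 CPM after PBS and 9.18, 7.49, 8.25 and 6.48 CPM after TNF. Bub1b fell by 1.61 ± 0.16 log2 units (adjusted p = 1.15e-06), and every TNF library was below every PBS library. Plk1, a kinase that drives centrosome maturation and mitotic exit, had 22.7, 21.5 and 21.3 CPM after PBS and 6.88, 9.37, 11 and 5.43 CPM after TNF. TNF replicate 4 was lowest and replicate 3 highest in its group, and Plk1 fell by 1.41 ± 0.21 log2 units (adjusted p = 4.78e-05). Birc5, which encodes survivin of the chromosomal passenger complex, had 11.6, 10.5 and 11.5 CPM after PBS and 4.48, 3.95, 4.71 and 2.68 CPM after TNF. The groups did not overlap, and Birc5 fell by 1.5 ± 0.22 log2 units (adjusted p = 5.82e-05). Among genes of the anaphase-promoting complex pathway, which marks mitotic proteins for destruction, Cdc20 and the ubiquitin-conjugating enzyme Ube2c had log2 fold changes of -1.29 ± 0.16 and -1.37 ± 0.24. Cenpa, the histone H3 variant of centromeres, changed by -1.16 ± 0.19, Aurka, a spindle pole kinase, by -1.06 ± 0.22, and Aurkb, the kinase of the passenger complex, by -0.78 ± 0.16 (log2, SE). Bub1, the partner of BubR1, had the smallest change of the group at -0.57 ± 0.20 (adjusted p = 0.0247), and its call was lost without PBS replicate 1 or 2 or TNF replicate 2 or 4 (adjusted p 0.0519 to 0.0956).

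Summed over the 11 mitosis genes, the PBS libraries held 532, 499 and 536 CPM and the TNF libraries 220, 197, 260 and 201 CPM. The TNF sums were 37.8% to 49.8% of the PBS mean. Mki67 and Top2a give most of these sums.

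In G2 and entry into mitosis, 6 of 7 genes were lower, against 30.1% of all genes tested, and the kinase itself was not called. Cdk1 (ENSMUSG00000019942, chromosome 10, 69170976 to 69236595 in GRCm39), the kinase whose activation starts mitosis, had 21.4, 22.1 and 20.6 CPM after PBS and 19.3, 18.2, 21.7 and 19.6 CPM after TNF. The groups overlapped, since TNF replicate 3 lay within the PBS range, and the log2 fold change was -0.12 ± 0.12 (adjusted p = 0.428). Its cyclin partners were lower. Ccnb2, cyclin B2, had 19.0, 20.4 and 17.0 CPM after PBS and 7.11, 5.19, 6.48 and 3.86 CPM after TNF and no overlap. It showed the largest fall of the 45 genes: Ccnb2 fell by 1.73 ± 0.20 log2 units (adjusted p = 6.35e-06). Ccna2, cyclin A2, which serves both S phase and G2, had 47.3, 51.0 and 52.8 CPM after PBS and 21.2, 20.2, 23.5 and 16.6 CPM after TNF. The TNF libraries all lay under the lowest PBS library by a wide margin, and Ccna2 fell by 1.30 ± 0.13 log2 units (adjusted p = 1.13e-06). Ccnb1, cyclin B1, had 10.8, 11.9 and 11.8 CPM after PBS and 8.06, 7.96, 8.25 and 6.54 CPM after TNF. The groups did not overlap but stood closer than for the other cyclins, and Ccnb1 fell by 0.57 ± 0.17 log2 units (adjusted p = 0.0109). Foxm1, a transcription factor of mitotic genes, had 13.7, 15.8 and 22.6 CPM after PBS and 8.95, 8.84, 11 and 8.18 CPM after TNF. PBS replicate 3 was the highest library, and Foxm1 fell by 0.91 ± 0.19 log2 units (adjusted p = 0.000999). Of the phosphatases that switch Cdk1 on, Cdc25b fell by 1.64 ± 0.16 log2 units (adjusted p = 1.31e-06), and Cdc25c, which had no more than 4.39 CPM in any library, changed by -1.12 ± 0.40 (adjusted p = 0.0257). The call of Cdc25c was lost without PBS replicate 1 or 3 or TNF replicate 3 or 4 (adjusted p 0.0579 to 0.0881).

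**Figure D3:**
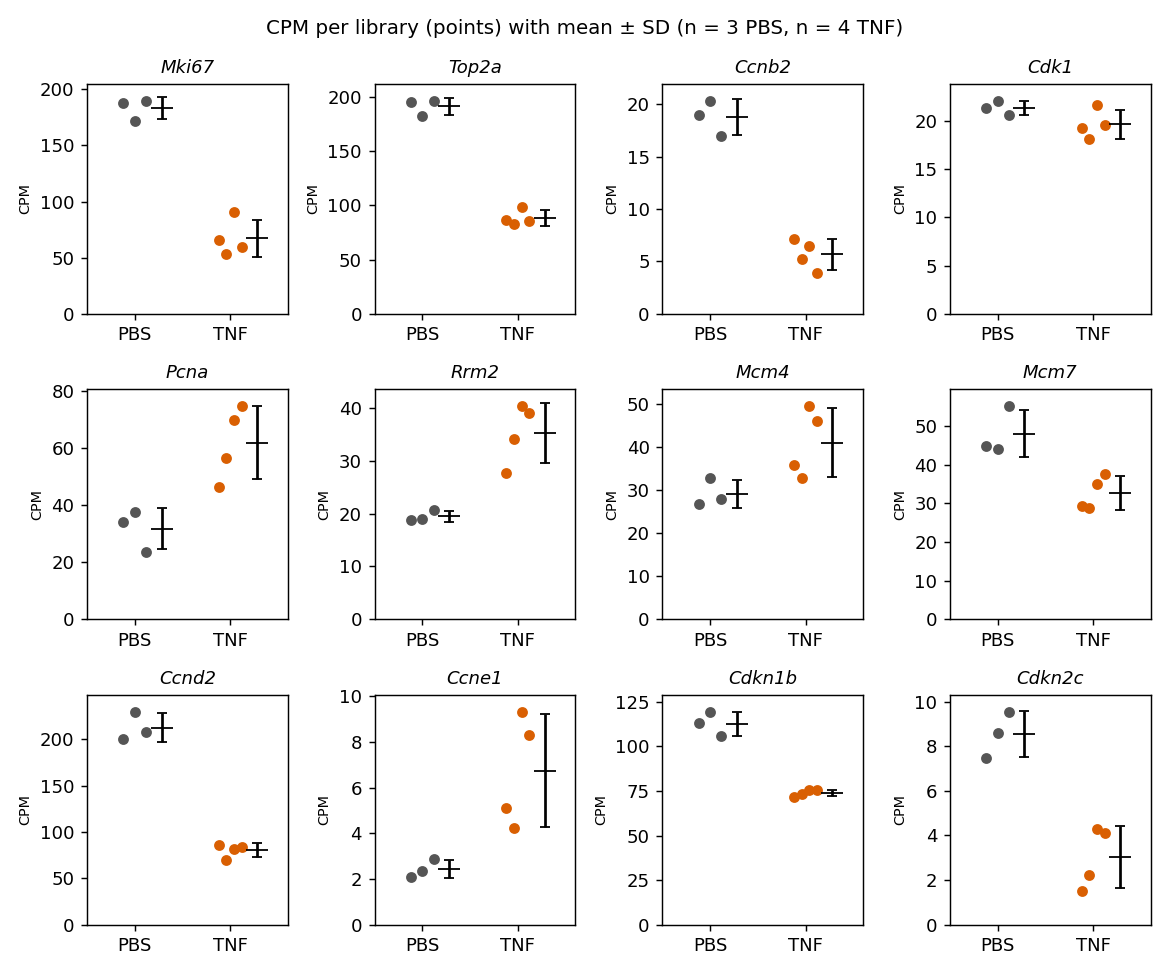
CPM of 12 of the genes in each library (points) with the mean ± SD of the group (bars, n = 3 PBS and n = 4 TNF), on axes that start at 0. Mki67, Top2a, Ccnb2, Mcm7, Ccnd2, Cdkn1b and Cdkn2c have all TNF points below the PBS points, Pcna, Rrm2, Mcm4 and Ccne1 have them above, and Cdk1 overlaps.

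In DNA synthesis, 2 of 4 genes were higher and none was lower. That is no more calls than the 59.6% over all genes tested would give. Pcna (ENSMUSG00000027342, chromosome 2, 132091082 to 132095234 in GRCm39), the sliding clamp that holds DNA polymerases on the template, had 34.0, 37.7 and 23.7 CPM after PBS and 46.5, 56.5, 70.0 and 74.7 CPM after TNF. The TNF libraries all lay above the PBS libraries, and PBS replicate 3 was the lowest. Pcna rose by 0.96 ± 0.19 log2 units (adjusted p = 0.000673). Rrm2 (ENSMUSG00000020649, chromosome 12, 24757811 to 24764145 in GRCm39), the S phase subunit of ribonucleotide reductase, had 18.8, 19.0 and 20.7 CPM after PBS and 27.8, 34.2, 40.4 and 39.1 CPM after TNF. The PBS libraries lay close together and below all TNF libraries, and Rrm2 rose by 0.86 ± 0.14 log2 units (adjusted p = 0.000139). Its partner Rrm1, the large subunit, had a log2 fold change of 0.14 ± 0.12 (adjusted p = 0.336). Tyms, thymidylate synthase, had -0.38 ± 0.16 (adjusted p = 0.0566), and without PBS replicate 1 or without TNF replicate 3 it passed the test as lower (adjusted p = 0.0359 and 0.0495). Under scaling by total counts alone Tyms was called lower too (adjusted p = 0.0385). Summed CPM of the 4 genes was 120, 132 and 119 after PBS and 145, 155, 191 and 193 after TNF, with no overlap.

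Of the 8 genes of replication licensing, 3 were higher, 2 lower and 3 not called, which is near the shares over all genes tested (29.5% higher and 30.1% lower). The Mcm2 to Mcm7 proteins form a single hexameric ring, the replicative helicase that is loaded on origins in G1, and its subunits did not move in 1 direction. Mcm4 had 26.6, 32.7 and 27.8 CPM after PBS and 35.7, 32.9, 49.5 and 46.1 CPM after TNF. TNF replicates 3 and 4 were highest, replicate 2 was barely above PBS replicate 2, and Mcm4 rose by 0.50 ± 0.15 log2 units (adjusted p = 0.0116). Mcm2 had 42.3, 43.6 and 47.9 CPM after PBS and 50.1, 53.5, 56.0 and 57.4 CPM after TNF. The groups were adjacent without overlap, and Mcm2 rose by 0.28 ± 0.10 log2 units (adjusted p = 0.0298). Mcm3 rose by 0.44 ± 0.16 log2 units (adjusted p = 0.0288), with 1 PBS library inside the TNF range. Mcm7 had 44.9, 44.2 and 55.1 CPM after PBS and 29.3, 28.7, 34.9 and 37.6 CPM after TNF. All TNF libraries were below all PBS libraries, and Mcm7 fell by 0.56 ± 0.13 log2 units (adjusted p = 0.00202). Mcm5 fell by 0.51 ± 0.16 log2 units (adjusted p = 0.0154), from 34.3, 36.1 and 52.4 CPM after PBS and 27.2, 23.6, 31.4 and 33.1 CPM after TNF. PBS replicate 3 was far above the other PBS libraries for Mcm5. Without that library the change was -0.29 and the call was lost (adjusted p = 0.109), and it was also lost without TNF replicate 2 (adjusted p = 0.0542). Mcm6 had a log2 fold change of 0.02 ± 0.13 (adjusted p = 0.881).

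Several calls in licensing depended on single libraries. Without TNF replicate 3 the calls of Mcm2, Mcm3 and Mcm4 were all lost (adjusted p = 0.0901, 0.123 and 0.0516), which left Ccne1, Pcna and Rrm2 as the genes called higher. Mcm2 and Mcm3 also lost their calls without PBS replicate 1, PBS replicate 2 or TNF replicate 4 (adjusted p 0.0856 to 0.12). Scaling by total counts alone, under which all genes tested had a median log2 fold change of -0.16, left the same 3 rises, and Mcm2, Mcm3 and Mcm4 then had log2 fold changes of 0.10, 0.25 and 0.32. Cdt1, which loads the helicase, had 15.0, 19.6 and 20.2 CPM after PBS and 13.7, 14.6, 16.9 and 15.3 CPM after TNF. The groups overlapped, and the log2 fold change was -0.28 ± 0.15 (adjusted p = 0.137). Gmnn, geminin, which binds Cdt1 and blocks reloading, had 9.21, 9.16 and 9.39 CPM after PBS and 12, 10.8, 11.8 and 13.2 CPM after TNF. The TNF libraries all lay above the PBS libraries, but the log2 fold change of 0.37 ± 0.16 did not pass the test (adjusted p = 0.063).

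Counts of a pair of genes within 1 library give a ratio that does not depend on library scaling. Such ratios were formed after the values had been seen and were not tested. In each pair, 1 gene had all TNF libraries above the PBS libraries and the other had them all below. Separate ratios between the groups follow from this and add no further result. The ratio of Pcna to Mki67 counts was 0.181, 0.219 and 0.125 after PBS and 0.707, 1.07, 0.774 and 1.25 after TNF. The ratio of Rrm2 to Top2a counts was 0.0960, 0.104 and 0.105 after PBS and 0.320, 0.414, 0.409 and 0.458 after TNF. In both pairs the S phase gene stood higher against the mitosis gene in every TNF library than in any PBS library. Within the helicase, the ratio of Mcm4 to Mcm7 counts was 0.594, 0.740 and 0.505 after PBS and 1.22, 1.15, 1.42 and 1.23 after TNF, below 1 in all PBS libraries and above 1 in all TNF libraries.

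Among the 9 G1 genes, 4 were lower, 1 was higher and 4 were not called, a number of calls near the 59.6% over all genes tested. All D-type cyclins, which link growth signals to the cell cycle, were lower. Ccnd2 (ENSMUSG00000000184, chromosome 6, 127102125 to 127129156 in GRCm39), cyclin D2, had 201, 230 and 207 CPM after PBS and 86.3, 70.0, 82.0 and 83.8 CPM after TNF. The PBS libraries held more than any TNF library by a wide margin, and Ccnd2 fell by 1.40 ± 0.11 log2 units (adjusted p = 9.07e-08). Ccnd1, cyclin D1, had 70.5, 72.7 and 80.4 CPM after PBS and 41.0, 37.0, 50.5 and 44.0 CPM after TNF. Its groups did not overlap, and Ccnd1 fell by 0.79 ± 0.12 log2 units (adjusted p = 5.35e-05). Ccnd3, cyclin D3, had 46.8, 34.4 and 31.7 CPM after PBS and 24.8, 22.6, 21.0 and 17.1 CPM after TNF. PBS replicate 1 was the highest library, and Ccnd3 fell by 0.81 ± 0.16 log2 units (adjusted p = 0.000546). Of the summed CPM of the 3 cyclins, Ccnd2 held 65.4% ± 2.58 in the PBS libraries and 55.5% ± 2.11 in the TNF libraries (SD, n = 3 and n = 4). The share of Ccnd1 was 23.0% ± 1.92 and 29.7% ± 2.55, and that of Ccnd3 11.6% ± 2.69 and 14.8% ± 2.55. The shares of Ccnd1 and Ccnd2 did not overlap between the groups, and those of Ccnd3 did.

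The kinases of these cyclins differed. Cdk6 had 141, 133 and 169 CPM after PBS and 99.96, 72.3, 98.4 and 92.5 CPM after TNF, without overlap, and fell by 0.70 ± 0.13 log2 units (adjusted p = 0.000301). Cdk4 had 77.4, 87.7 and 82.1 CPM after PBS and 67.0, 77.4, 82.3 and 81.9 CPM after TNF. The groups overlapped (log2 fold change -0.09 ± 0.10, adjusted p = 0.454). Among the E-type cyclins, which act with Cdk2 at the start of S phase, Ccne1 (ENSMUSG00000002068, chromosome 7, 37797404 to 37808264 in GRCm39) had 2.10, 2.34 and 2.86 CPM after PBS and 5.09, 4.24, 9.32 and 8.31 CPM after TNF. TNF replicates 3 and 4 were highest, all TNF libraries were above all PBS libraries, and Ccne1 rose by 1.46 ± 0.32 log2 units (adjusted p = 0.00141), the largest rise of the 45 genes. Ccne2 had 5.87, 4.73 and 8.01 CPM after PBS and 6.49, 5.54, 6.32 and 4.84 CPM after TNF, with overlapping groups (log2 fold change -0.10 ± 0.24, adjusted p = 0.751). Neither Cdk2, at 0.07 ± 0.14, nor Cdc25a, a phosphatase that activates Cdk2, at 0.08 ± 0.12, passed the test (adjusted p = 0.678 and 0.565). The ratio of Ccne1 to Ccnd2 counts was 0.0105, 0.0102 and 0.0138 after PBS and 0.0590, 0.0607, 0.114 and 0.0992 after TNF, higher in every TNF library than in any PBS library. That separation follows from the separate ranges of both genes.

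Of the 3 E2F factors, 1 was lower and 2 were not called, near the 30.1% lower over all genes tested. E2f1, an activator of replication genes, had 9.89, 9.88 and 10.8 CPM after PBS and 5.48, 6.6, 7.76 and 5.56 CPM after TNF. The groups did not overlap, and E2f1 fell by 0.68 ± 0.20 log2 units (adjusted p = 0.00829). E2f2, another activator, had a log2 fold change of 0.25 ± 0.14 (adjusted p = 0.14). E2f7, a repressor that acts late in S phase, had 3.65, 4.17 and 9.65 CPM after PBS and 7.89, 8.25, 10.9 and 10.1 CPM after TNF. PBS replicate 3 lay within the TNF range and apart from the other PBS libraries. The log2 fold change was 0.67 ± 0.31 (adjusted p = 0.0773) over all libraries and 1.24 without PBS replicate 3 (adjusted p = 0.000946).

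All 3 kinase inhibitors of the set were lower, against 30.1% of all genes tested. Cdkn2c (ENSMUSG00000028551, chromosome 4, 109517957 to 109524386 in GRCm39), which encodes p18, an inhibitor of Cdk4 and Cdk6, had 7.48, 8.60 and 9.54 CPM after PBS and 1.51, 2.24, 4.28 and 4.12 CPM after TNF. All TNF libraries were below all PBS libraries, with TNF replicates 1 and 2 lowest, and Cdkn2c fell by 1.49 ± 0.32 log2 units (adjusted p = 0.00125). Cdkn1c, which encodes p57, had 6.92, 5.55 and 4.24 CPM after PBS and 2.46, 2.59, 1.93 and 2.09 CPM after TNF. The groups did not overlap at these low levels, and Cdkn1c fell by 1.29 ± 0.29 log2 units (adjusted p = 0.00159). Cdkn1b, which encodes p27, had 113, 119 and 106 CPM after PBS and 71.5, 73.1, 75.3 and 75.3 CPM after TNF. The TNF libraries lay close together below the PBS libraries, and Cdkn1b fell by 0.61 ± 0.09 log2 units (adjusted p = 6.4e-05). D-type cyclins and these inhibitors were thus lower in the same libraries. Cdkn1a, which encodes the inhibitor p21 and is no member of the gene set, moved the other way. It had 94.7 ± 15.2 CPM after PBS and 326 ± 56.7 CPM after TNF (SD, n = 3 and n = 4), and rose by 1.79 ± 0.16 log2 units (adjusted p = 4.96e-07).

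Per kilobase of the canonical transcript, the highest mean levels after PBS were those of Cdk4 (39.6 CPM per kb), Top2a (36.5), Ccnd2 (33.6), Cdkn1b (24.8) and Pcna (21.0). After TNF they were those of Pcna (40.8 CPM per kb), Cdk4 (37.1), Mcm6 (20.6), Cdc25a (19.1) and Top2a (16.9). Ccnd2 was at 12.7 CPM per kb and Mki67 at 6.55 after TNF, from 33.6 and 17.9 after PBS. The lowest after PBS were E2f7 (1.06 CPM per kb), Ccne1 (1.17) and Ccne2 (1.19). Reads were not assigned to transcripts here, so these levels depend on the transcript that was taken for the length.

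Other genes of the pathway were read from the same fit in 3 further lists. Of 46 other mitosis genes, 34 were lower, 2 higher and 10 not called, with a median log2 fold change of -1.02. Over all genes tested, 30.1% were lower and 29.5% higher. The largest falls were those of Aspm, a spindle pole protein, at -2.47 ± 0.22, Cenpf, a kinetochore protein, at -2.13 ± 0.20, and Spc24, a subunit of the Ndc80 complex, at -1.90 ± 0.27 (adjusted p = 4.14e-07, 9.61e-07 and 3.76e-05). The rises were those of Gtse1, a microtubule-binding protein that also restrains p53, at 1.42 ± 0.22, and Cks1b, a small subunit bound by cyclin-dependent kinases, at 0.86 ± 0.18 (adjusted p = 7.08e-05 and 0.0011).

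Of 42 other replication genes, 8 were higher, 13 lower and 21 not called, with a median of -0.10. These counts are no higher than the 59.6% called over all genes tested would give. Fen1, the nuclease that trims Okazaki fragments, had 31.0 ± 3.49 CPM after PBS and 81.7 ± 15.0 CPM after TNF, a log2 fold change of 1.40 ± 0.15 (adjusted p = 2.4e-06). Chaf1b, a histone chaperone of the replication fork, and Orc6, a subunit of the origin recognition complex, rose by 1.36 ± 0.19 and 1.30 ± 0.17. In the other direction, Tk1, the S phase thymidine kinase, changed by -2.58 ± 0.44, Rfc1, the large subunit of the loader of Pcna, by -1.97 ± 0.15, and Cdc6, which loads the helicase with Cdt1, by -0.98 ± 0.30 (adjusted p = 0.000403, 1.28e-07 and 0.0116). TNF replicate 1 was highest for Tk1, at 5.15 CPM against 1.12 to 1.51 CPM in the other TNF libraries, and without it Tk1 changed by -3.38. The call of Cdc6 was lost without PBS replicate 2 or 3 (adjusted p = 0.0533 and 0.0512). The other subunits of the loader did not follow Rfc1 alike, with Rfc2 at -0.92 ± 0.17 (called lower), Rfc3 at 0.48 ± 0.19 (called higher), and Rfc4 at 0.04 ± 0.24 and Rfc5 at -0.30 ± 0.16 (not called). These 4 subunits are given outside the rule for naming genes, after their values were seen.

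Of 34 other G1 genes and regulators, 33 were tested, since Cdkn2a had 0 counts in every library. Of these, 8 were higher, 10 lower and 15 not called, with a median of 0.05, again near the shares over all genes tested (29.5% higher and 30.1% lower). Beside Cdkn1a, the largest rises were those of Btg1, an antiproliferative gene, at 1.70 ± 0.14, and Mybl2, which encodes B-Myb, at 0.94 ± 0.22 (adjusted p = 2.69e-07 and 0.00201). The largest falls were those of Mycn, a transcription factor that promotes growth, Rbl2, which encodes the retinoblastoma relative p130, and Cdkn3, a phosphatase of cyclin-dependent kinases. Mycn went from 6.29 ± 1.16 CPM to 0.328 ± 0.322 CPM, a log2 fold change of -4.21 ± 0.57 (adjusted p = 2.75e-05) that was -4.99 without TNF replicate 2. Rbl2 changed by -1.55 ± 0.12 and Cdkn3 by -1.47 ± 0.40 (adjusted p = 1e-07 and 0.00595).

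**Figure D4:**
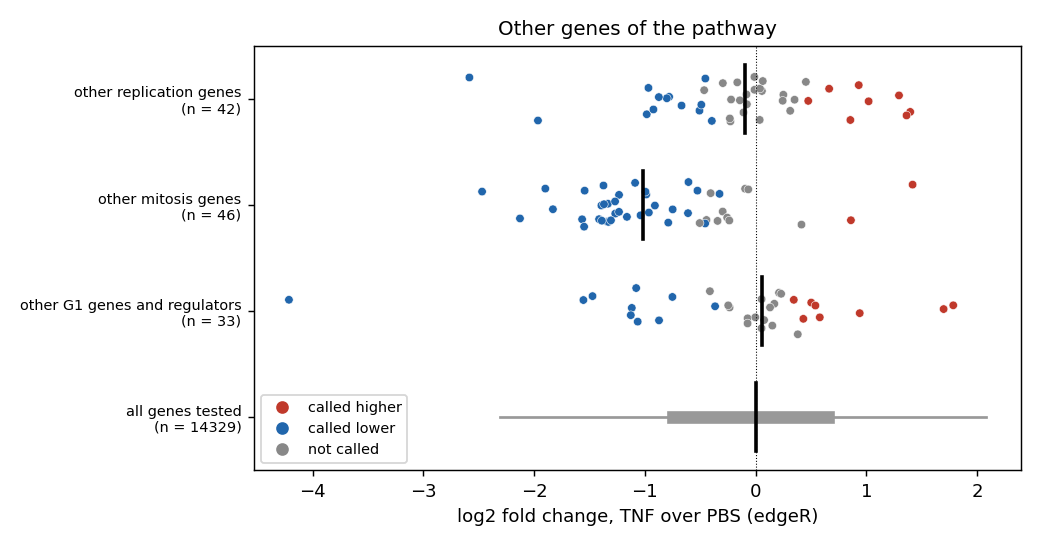
Fitted log2 fold change (TNF over PBS) of each other gene of the pathway (points, red called higher, blue called lower, grey not called) with the median of the list (black line), and for all 14329 genes tested the median, the middle 50% (thick bar) and the 5% to 95% range (thin bar). The medians are -0.10 for replication, -1.02 for mitosis, 0.05 for G1 genes and regulators and 0.0017 for all genes.

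Promoter sequence is a property that the choice of genes did not use. RefSeq windows from 250 bases before to 50 bases after the transcription start (GRCm38.p6) were found for 35 of the 45 genes, 39 windows in all, and 10 genes (Ccnd1, Ccnd2, Ccne2, Cdkn1c, Mcm4, Gmnn, Ccna2, Cdc25c, Foxm1 and Aurkb) had none. The windows were searched on both strands for the words of the cell cycle homology region (CHR, TTTGAA or TTCGAA), known as a DREAM and MuvB element, and of E2F sites (TTTCCCGC, TTTCGCGC, TTTGCCGC or TTTGGCGC). No CHR match overlapped an E2F match in these windows. Of 10 mitosis windows, 9 held a CHR word (90%) and 0 an E2F word. Of 7 licensing windows, 5 held an E2F word (71.4%) and 2 a CHR word. None of the 4 DNA synthesis windows held either. Among all 32851 windows, 19.2% held a CHR word and 2.26% an E2F word, and among the 13029 windows of genes tested 14.2% and 3.98% did. The shorter word CCAAT was in 76.9% of the 39 windows and 37.4% of all windows.

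The windows of Mki67 (chr7:135716350-135716629, minus strand), Top2a (chr11:99024160-99024439, minus strand) and Ccnb2 (chr9:70421525-70421804, minus strand) are shown for genes that fell and hold CHR words. That of Cdk1 (chr10:69352883-69353162, minus strand) is shown as a gene with 2 CHR words that was not called. Each is printed 5′ to 3′ over its first 280 bases, 250 before and 30 after the start, with the CHR words on either strand in capitals.
Mki67: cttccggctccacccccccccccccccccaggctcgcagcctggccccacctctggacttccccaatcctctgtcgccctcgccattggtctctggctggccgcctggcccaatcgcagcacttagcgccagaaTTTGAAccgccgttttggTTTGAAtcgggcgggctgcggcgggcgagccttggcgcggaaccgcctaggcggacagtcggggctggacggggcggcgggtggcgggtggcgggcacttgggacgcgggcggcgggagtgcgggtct
Top2a: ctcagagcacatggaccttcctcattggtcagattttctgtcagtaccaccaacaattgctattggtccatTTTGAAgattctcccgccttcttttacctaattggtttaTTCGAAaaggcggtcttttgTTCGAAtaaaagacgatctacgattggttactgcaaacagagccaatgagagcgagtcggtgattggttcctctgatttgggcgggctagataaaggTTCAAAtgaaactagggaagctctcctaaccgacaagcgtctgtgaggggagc
Ccnb2: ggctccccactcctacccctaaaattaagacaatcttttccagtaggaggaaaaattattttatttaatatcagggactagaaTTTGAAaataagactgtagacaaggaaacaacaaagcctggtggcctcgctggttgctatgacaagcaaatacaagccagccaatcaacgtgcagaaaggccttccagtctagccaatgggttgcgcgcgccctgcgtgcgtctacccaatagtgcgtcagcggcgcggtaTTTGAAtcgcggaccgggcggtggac
Cdk1: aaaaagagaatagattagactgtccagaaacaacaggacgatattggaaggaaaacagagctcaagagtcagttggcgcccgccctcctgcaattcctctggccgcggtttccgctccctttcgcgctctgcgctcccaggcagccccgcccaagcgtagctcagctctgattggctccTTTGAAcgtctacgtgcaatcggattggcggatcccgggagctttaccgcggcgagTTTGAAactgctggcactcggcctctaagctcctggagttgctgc

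The windows of Mcm3 (chr1:20820283-20820562, minus strand), Mcm5 (chr8:75109259-75109538, plus strand) and Mcm6 (chr1:128359676-128359955, minus strand) are shown because these subunits of 1 helicase all hold E2F words and had a higher call, a lower call and no call. Over the same 280 bases the E2F words are in capitals, and adjoining capitals are words that overlap on opposite strands.
Mcm3: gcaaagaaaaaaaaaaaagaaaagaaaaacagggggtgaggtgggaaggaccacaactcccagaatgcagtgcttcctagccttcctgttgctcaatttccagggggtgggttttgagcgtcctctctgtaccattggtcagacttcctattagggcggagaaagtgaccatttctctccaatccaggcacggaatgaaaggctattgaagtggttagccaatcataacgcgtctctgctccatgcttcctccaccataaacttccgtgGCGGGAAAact
Mcm5: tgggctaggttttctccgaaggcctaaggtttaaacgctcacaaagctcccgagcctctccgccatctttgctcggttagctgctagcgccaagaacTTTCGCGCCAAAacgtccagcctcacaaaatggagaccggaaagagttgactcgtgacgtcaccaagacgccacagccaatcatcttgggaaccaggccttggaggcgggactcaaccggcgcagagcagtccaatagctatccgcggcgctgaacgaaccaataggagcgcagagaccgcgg
Mcm6: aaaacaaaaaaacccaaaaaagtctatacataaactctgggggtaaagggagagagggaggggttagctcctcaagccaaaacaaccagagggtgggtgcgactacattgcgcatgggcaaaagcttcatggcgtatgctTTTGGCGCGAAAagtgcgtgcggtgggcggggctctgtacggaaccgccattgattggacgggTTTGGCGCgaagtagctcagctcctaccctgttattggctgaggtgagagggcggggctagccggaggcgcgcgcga

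Sorted by these words, 12 genes had a CHR word and no E2F word. Of these, 11 were lower and 1, Mcm2, was higher, and their median log2 fold change was -1.33. The 7 genes with an E2F word and no CHR word had a median of 0.07, with 1 lower (Mcm5), 1 higher (Mcm3) and 5 not called. Both kinds of word were found for Cdk1, E2f2 and Mcm7, for E2f2 in separate windows, with a median of -0.12. The 13 genes with neither had a median of -0.57, with 7 lower and 3 higher. Over all genes tested, 30.1% were lower and 29.5% higher. Among the 1613 tested genes with a CHR word and no E2F word, 35.5% were lower and 28.8% higher, and among the 391 with an E2F word and no CHR word 31.7% and 28.6%. Among the 13 genes with neither word were Birc5 and Ccnb1, which fell without a CHR word in these windows, and Pcna and Rrm2, which rose without an E2F word. A match is a description of letters, not of a bound site, and the role groups and the words overlap in these genes.

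**Figure D5:**
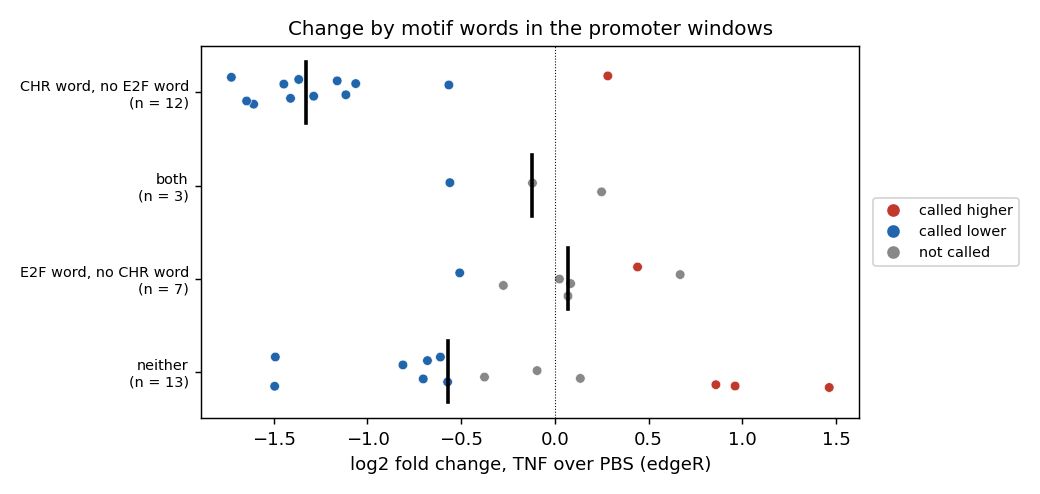
Fitted log2 fold change (TNF over PBS) of the 35 genes with a promoter window, by the motif words found in any window of the gene (points, red called higher, blue called lower, grey not called, black line the median). The medians are -1.33 with a CHR word alone (n = 12), -0.12 with both (n = 3), 0.07 with an E2F word alone (n = 7) and -0.57 with neither (n = 13).

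Markers of other cells of the crypt moved in the same libraries, and their part in these results was not tested. Counts of called markers stand against 30.1% lower and 29.5% higher over all genes tested. Of 10 stem cell markers, 8 were lower and 0 higher, and their summed CPM was 4108 to 5312 after PBS and 2591 to 3382 after TNF. Lgr5, the receptor that defines crypt base stem cells, was called lower at -2.32 on the log2 scale. Of 9 enterocyte markers tested, 7 were lower and 1 higher (sums of 1075 to 1294 and 363 to 426 CPM). Of 10 goblet cell markers, 6 were lower and 1 higher (11700 to 21184 and 9549 to 11055 CPM), and all 8 tuft cell markers were lower (1535 to 2564 and 310 to 778 CPM). Leukocyte markers summed to 24.9 to 33.2 CPM after PBS and 21.9 to 29.9 CPM after TNF, with Cd3e, Ms4a1 and Nkg7 at 0 in every library. Of 5 leukocyte markers tested, 1 was higher, 1 lower and 3 not called. The higher gene, S100a9, a neutrophil gene, had 0 counts in all PBS libraries and 3.21 to 7.85 CPM after TNF. The lower gene, Ptprc, had means of 16.4 CPM after PBS and 8.50 CPM after TNF. Its groups overlapped (log2 fold change -0.95 ± 0.33, adjusted p = 0.027). Stromal and endothelial markers summed to 1.92 to 2.44 and 0.472 to 1.06 CPM, with Kdr at 0 in every library. Of 8 PC markers, 2 were higher, 2 lower and 4 not called, a number of calls near the 59.6% over all genes. Nupr1 and Mmp7 rose by 2.49 and 0.88 log2 units, and Clps and Habp2 changed by -2.27 and -1.26. Lyz1, Defa24, Ang4 and Itln1 were not called. The sums overlapped (164787 to 264673 and 159252 to 285516 CPM). Lyz1 and Defa24 give most of these sums, which therefore hardly show the other markers.

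For 14 of the 45 genes, over 10% of the exonic bases or of the 75-base stretches of their transcripts were shared with another annotated gene, so that their counts are uncertain where the counting could split such reads. These were 9 genes called lower, 2 called higher and 3 not called. Pcna shared 29.4% of such stretches and Rrm2 27.0%, and Ccnd1 59.2%. Mki67, Ccnb1, Ccnb2, Bub1b, Mcm2, Mcm3, Mcm4, Mcm5 and Mcm6 shared 0% of both.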

How the data were processed

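Per the labels, total RNA of sorted PCs was sequenced on an Element AVITI sequencer (single-end). The authors deposited raw counts, whole numbers of reads per gene in 1 column per library, and all 7 columns were matched to samples by name. The submitters' processing notes name FastQC, Trimmomatic 0.39, STAR 2.7.10a, DESeq2 and the builds mm10 and mm39 without roles. What counted the reads, on which annotation and with which strand setting is not given in the sources used here, and counts of overlapping genes are uncertain. Symbols, coordinates and canonical transcript lengths came from GENCODE M39 (GRCm39), which held 54749 of 55414 identifiers.

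Counts were filtered with filterByExpr (14329 genes left), scaled by TMM and fitted over all 7 libraries with the robust quasi-likelihood test of edgeR 4.0.16 in R 4.3.3 (two-sided, TNF against PBS, no covariates), with Benjamini-Hochberg adjustment over all genes tested. The script was tested on simulated data. CPM use TMM-scaled library sizes. The depth of 15511455 to 19193721 counts per library sets the counting error, and SEs include the spread between libraries. No library was a copy of another of its group (lowest chi-square over its degrees of freedom 17.0). Shared sequence was searched with blastn 2.17.0 over 75-base stretches, and promoter words were matched letter by letter in RefSeq windows.

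The 45 genes, the lists of other genes and markers and the tests were chosen with earlier results of these data known. Values per library are given for 25 genes set by name and for the gene with the largest rise and fall in each role group, and 3 rises and 3 falls were named per further list. Ratios of counts and the promoter windows shown were chosen after values were seen. The alternatives were DESeq2 size factors, total counts alone, TMM without alpha-defensins, Lyz1 and Reg3g, no filter on low counts, at least 1 CPM in 3 libraries, the Wald test of DESeq2 1.42.0, the replicate number as a block, a change of at least 2-fold, and leaving out each library.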

Additional observations from a re-analysis of the deposited data

Results flagged for a closer look

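Within the TNF group, 1 of 52 values examined (the CPM of each of the 45 genes and the summed CPM of the role groups) had a library apart from the others. For Ccnb1, cyclin B1, TNF replicate 4 had 6.54 CPM against 8.06, 7.96 and 8.25 CPM in the other TNF libraries, a gap of 0.83 of the range of the group, which is just past Dixon's limit for 4 values. Chance gives such a gap in about 1 in 20 groups, and the PBS group of 3 was not examined in this way. Leaving out TNF replicate 4 kept Ccnb1 lower and past the test.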

How the results depend on the processing

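Of the 45 genes, all 45 kept their direction and their side of the threshold with DESeq2 size factors, with TMM without alpha-defensins, Lyz1 and Reg3g, with at least 1 CPM in 3 libraries and with the Wald test of DESeq2. Requiring a change of at least 2-fold left 17 of the genes called, 1 higher and 16 lower (31.6% of all genes tested passed this), and left 6 other replication genes and 9 other G1 genes and regulators. Scaling by total counts alone left 3 genes called higher, and the sign turned for 4 genes that were not called, namely Cdk2 (-0.096), Cdc25a (-0.084), Mcm6 (-0.16) and Rrm1 (-0.034). Without a filter on low counts, Mcm2 was not called (adjusted p = 0.0662) and E2f7 was (adjusted p = 0.0167). Leaving out 1 library at a time gave 29 to 33 genes called, 3 to 7 higher and 25 to 27 lower. The sign then turned for Ccne2 (-0.26 to 0.13), Cdk2 (-0.038 to 0.21) and Mcm6 (-0.088 to 0.14), none of which was called. Same-numbered libraries did not deviate together (correlations of -0.27, -0.02 and -0.26), so the numbers are not taken as pairs. With the replicate number as a block, over the libraries numbered 1 to 3, 27 genes were called, 3 higher and 24 lower, and 7067 of all 14205 genes tested. The same 6 libraries without the block gave 29 genes and 8093 of 14205. Mcm2, Mcm3, Cdc25c and Bub1 were not called in either fit, and Mcm4 and Ccnb1 were called without the block and not with it. Mcm6 was below 0 in both fits, at -0.031 with the block and -0.044 without it. The causes of these changes were not tested. The number of libraries limits the precision, and Cdc25c, Cdkn2c, Cdkn1c, Ccne1 and Birc5 had a library with under 50 counts.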
